A study of Bos taurus with 4 samples.

Results

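The genes described here are PGRMC1 and PGRMC2, the membrane-associated progesterone receptor components, and HSD3B1, an enzyme that makes progesterone. They are 3 of 15216 named genes on the array. All probes that carry one of these symbols in the array's annotation were taken, 7 of 43794 in all: 3 probes of PGRMC1, 3 of PGRMC2 and 1 of HSD3B1. The genes were picked with their 8 over 14 month ratios known, so those ratios and intensities are given as a description and carry no test. Expression was measured in early blastocysts, bovine embryos with a fluid cavity, collected 168 h after fertilization in vitro. The oocytes came from the same Holstein heifers at 8 months of age and again at 14 months, and semen of 1 bull was used throughout. Before each collection the heifers of both ages were given progesterone by an intravaginal device (CIDR), had the dominant follicle removed and received 6 injections of 30 mg FSH at 12 h intervals, with ovum pickup 43 h after the last. RNA of pooled blastocysts was amplified in 2 rounds, labelled with a dye and hybridised on a 2-colour array. Each of 4 heifers gave 1 array that held both of its ages (n = 4 heifers). The 8-month embryos were labelled with Cy5 in heifers 1 and 2 and with Cy3 in heifers 3 and 4. The collection at 8 months preceded that at 14 months in every heifer, so age and order of collection cannot be told apart.

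Progesterone acts through a nuclear receptor, PGR, through membrane receptors of the PAQR family, and in some cells through proteins of the membrane-associated progesterone receptor (MAPR) family, to which PGRMC1 and PGRMC2 belong. These are small haem-binding proteins with a cytochrome b5-like domain, anchored mostly in the endoplasmic reticulum, where they bind cytochrome P450 enzymes. PGRMC1 is known in bovine oocytes, where it associates with chromosomes and the spindle. PGRMC2 carries haem to the nucleus in mouse fat cells. HSD3B1 is a 3-beta-hydroxysteroid dehydrogenase, which converts pregnenolone into progesterone, and its human counterpart is the form used by the trophoblast of the placenta.

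Between 26.9% and 51.1% of the probes were above background in the 8 samples. A probe counted as above background in a sample where its median pixel intensity lay more than 2 SD over the average negative control spot of that array and channel. This limit was higher in the 8-month channel of every array. It was 268.7, 266.3, 280.2 and 334.3 at 8 months, against 150.8, 198.3, 104.8 and 231.6 at 14 months, in heifers 1 to 4. Counts of samples above background therefore do not compare the ages. Each of the 14 blastocyst markers with a probe passed this limit in 3 or 4 samples of an age, among them POU5F1, NANOG, SOX2, GATA3, KRT8 and KRT18. The embryos at 8 and 14 months were compared by the log2 ratio of 8 over 14 months, in which a positive value is higher at 8 months. In bulk embryo pools fewer cells of a type and less RNA per cell cannot be told apart. Of the 7 probes, 5 were above background often enough to be compared (at least 3 of 4 samples of an age), as were 17685 probes of the whole array.

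PGRMC1 had 1 bright probe and 2 dim ones. On the bright probe, EMBV3_07237, the scanned intensity was 3284, 2336, 2975 and 2755 at 8 months, against 3310, 2490, 1724 and 1577 at 14 months, in heifers 1 to 4. These intensities mix age with dye, since the 8-month embryos were in Cy5 in heifers 1 and 2 and in Cy3 in the others. After normalization within each array, the log2 ratio of this probe was 0.13, 0.04, 0.16 and 0.41 in heifers 1 to 4. All 4 were above 0, heifer 4 was the highest and heifer 2 lay close to 0. The mean was 0.18 ± 0.16 (SD, n = 4), a 1.14-fold difference.

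The normalized level of PGRMC1 on EMBV3_07237, in log2 intensity, averaged 11.33 ± 0.30 at 8 months and 11.14 ± 0.33 at 14 months (SD, n = 4 each). The levels of the ages overlapped, and the range among heifers (0.68 at 8 months and 0.72 at 14 months) was wider than the difference between ages. The local background beside this spot in Cy3 was 88 and 82 at 8 months (heifers 3 and 4) and 77 and 68 at 14 months (heifers 1 and 2), where the median over all probes was 20 to 21. It was small against the signal.

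The other detected probe of PGRMC1, EMBV3_42040, had the opposite sign in every heifer. Its log2 ratio was -0.36, -0.35, -0.19 and -0.12, with a mean of -0.25 ± 0.12 (SD, n = 4). Its intensity was 365, 370, 480 and 409 at 8 months and 398, 456, 269 and 249 at 14 months. The probe was above background in all 8 samples, at 1.22 to 1.71 times the threshold at 8 months and 1.07 to 2.64 times at 14 months. The third probe, EMBV3_06817, reached the background limit in 1 embryo pool of 4 at 8 months and in 2 of 4 at 14 months and was not compared further. Its log2 ratio was also below 0 in all 4 heifers (-0.25, -0.68, -0.06 and -0.19). Of the compared probes of the whole array, 15.5% had this sign in all 4 heifers. For PGRMC1 the sign of the age difference thus depended on the probe.

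**Figure D1:**
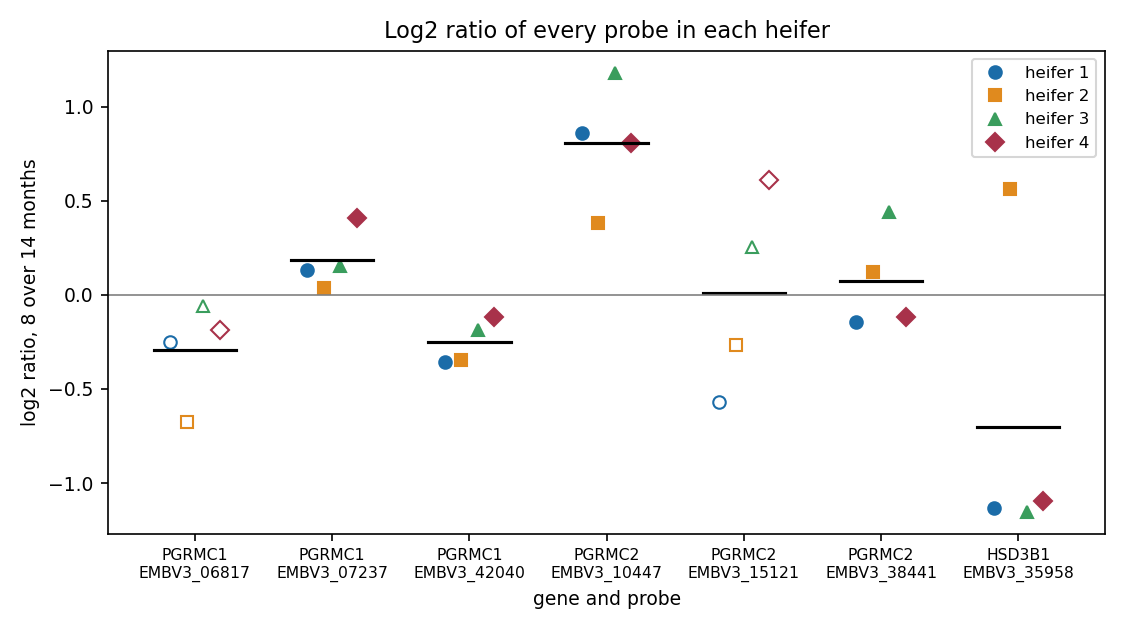
Log2 ratio of 8 over 14 months (vertical axis) for each of the 7 probes (horizontal axis) in each of 4 heifers, with a bar at the mean; open symbols mark probes too dim to be compared. The brightest probe of PGRMC2 lies above 0 in all 4 heifers, the detected probes of PGRMC1 lie on opposite sides of 0, and HSD3B1 has 3 heifers between -1.15 and -1.09 and heifer 2 at 0.56.

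PGRMC2 was higher at 8 months on its brightest probe, while its other probes were dim and had mean ratios near 0 with mixed signs among heifers. On EMBV3_10447 the scanned intensity was 1163, 919, 1144 and 881 at 8 months, against 661, 765, 271 and 348 at 14 months, in heifers 1 to 4. The intensity at 8 months exceeded that at 14 months in every heifer, in both dye orientations. The average negative control spot was also higher in the 8-month channel of every array. It was 232.5, 230.6, 244 and 294 at 8 months, against 129.3, 170.6, 87.4 and 156.5 at 14 months, in heifers 1 to 4. The scanned intensities alone therefore do not compare the ages. The normalized log2 ratio was 0.86, 0.38, 1.18 and 0.81, with a mean of 0.81 ± 0.33 (SD, n = 4), or 1.75-fold. Heifer 2 had the smallest ratio and heifer 3 the highest. The mean was 0.62 in heifers 1 and 2 and 0.99 in heifers 3 and 4.

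The normalized log2 level of PGRMC2 on this probe averaged 9.76 ± 0.29 at 8 months and 8.95 ± 0.46 at 14 months (SD, n = 4 each). The 8-month levels were 10.16, 9.74, 9.62 and 9.50, and the 14-month levels were 9.30, 9.36, 8.44 and 8.70. The lowest level at 8 months lay above the highest at 14 months. This held for 2.06% of all 8398 genes compared, each represented by its brightest detected probe. A ratio above 0 in all 4 heifers was found in 12.3% of genes. Both shares describe the array, and nothing is read from them for genes picked by this ratio.

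The second detected probe of PGRMC2, EMBV3_38441, had log2 ratios of -0.14, 0.12, 0.44 and -0.12, with a mean of 0.08 ± 0.27 (SD, n = 4). It was dim, with 287, 310, 382 and 337 intensity units at 8 months and 246, 262, 113 and 179 at 14 months. It stood at 1.01 to 1.36 times the threshold at 8 months and 0.773 to 1.63 times at 14 months, and 1 of the 4 samples at 14 months was below it. The third probe, EMBV3_15121, reached the background limit in 0 embryo pools of 4 at 8 months and in 1 of 4 at 14 months, and no fold is given. Its log2 ratio was -0.57 and -0.26 in heifers 1 and 2 and 0.26 and 0.61 in heifers 3 and 4, splitting by dye orientation. The higher expression of PGRMC2 at 8 months therefore rests on 1 probe of 3.

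**Figure D2:**
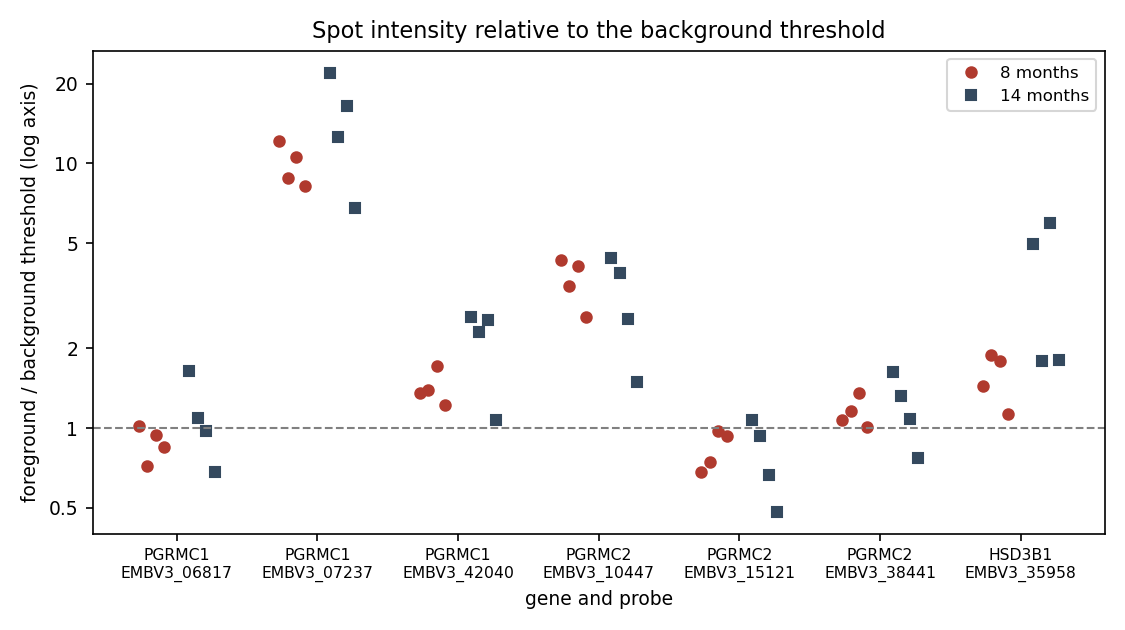
Scanned intensity divided by the background threshold of the same array and channel (vertical log axis) for each probe at 8 months (circles) and 14 months (squares), 4 heifers each; the dashed line is the threshold. PGRMC1 EMBV3_07237 stands at 6.81 to 22.0 times the threshold over both ages, whereas PGRMC1 EMBV3_06817 and PGRMC2 EMBV3_15121 lie around or below it.

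HSD3B1 was represented by 1 probe, EMBV3_35958, which was above background in all 8 samples. It stood at 1.13 to 1.89 times the threshold at 8 months and 1.79 to 5.93 times at 14 months. The 8-month signal was thus near the background limit. Its scanned intensity was 387, 503, 502 and 379 at 8 months, against 751, 356, 622 and 419 at 14 months, in heifers 1 to 4. The log2 ratio was -1.13, 0.56, -1.15 and -1.09. In heifers 1, 3 and 4 it was lower at 8 months by nearly the same amount, across both dye orientations, and in heifer 2 it was higher at 8 months. The mean was -0.70 ± 0.85 (SD, n = 4), so the spread among heifers exceeded the mean.

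The normalized log2 level of HSD3B1 averaged 8.36 ± 0.37 at 8 months and 9.07 ± 0.62 at 14 months (SD, n = 4 each), and the levels overlapped. At 8 months the level was 8.38, 8.79, 8.41 and 7.88, with heifer 2 the highest. At 14 months it was 9.51, 8.22, 9.56 and 8.98, with heifer 2 the lowest. Heifer 2 was thus at the end of the range at both ages. Without heifer 2 the fitted ratio of HSD3B1 was -1.13, and without heifer 1 it was -0.28.

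**Figure D3:**
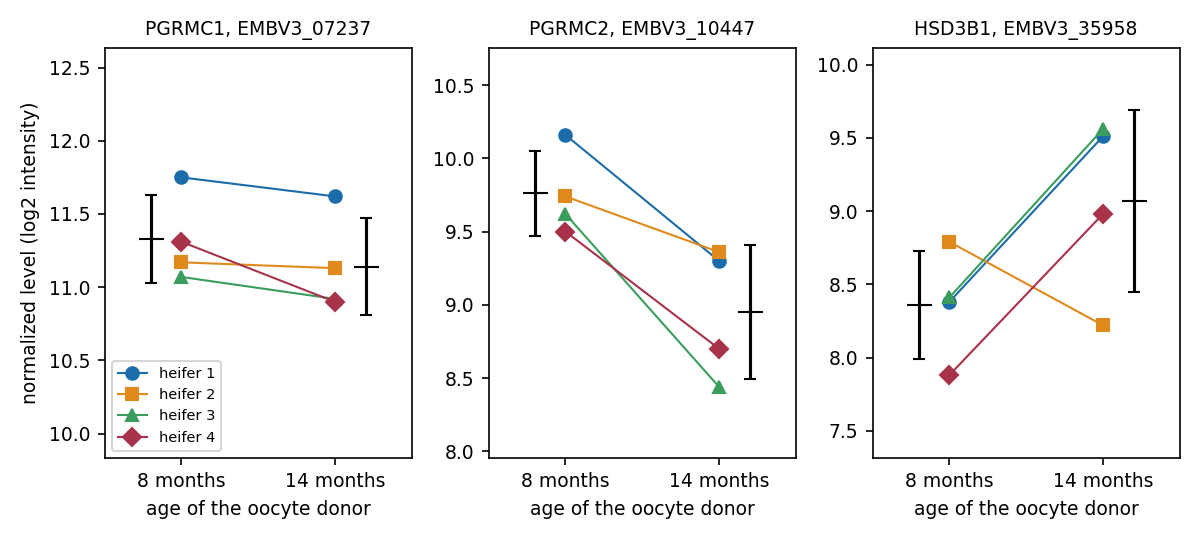
Normalized log2 level (vertical axes, 1 scale length for all panels) of the brightest probe of PGRMC1, PGRMC2 and HSD3B1 in embryos from oocytes collected at 8 and at 14 months, with a line for each of 4 heifers and the mean ± SD beside each age. The PGRMC1 lines are nearly flat, all 4 PGRMC2 lines are higher at 8 months, and 3 of 4 HSD3B1 lines are lower at 8 months.

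The ratios were also set beside each other within each heifer. PGRMC2 exceeded PGRMC1, each on its brightest probe, by 0.73, 0.34, 1.02 and 0.40 on the log2 scale, a mean difference of 0.62 ± 0.32 (SD, n = 4). HSD3B1 minus PGRMC2 was -1.99, -2.33 and -1.90 in heifers 1, 3 and 4, and 0.18 in heifer 2. Heifer 2 had both the smallest PGRMC2 ratio and the only positive HSD3B1 ratio.

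Among the 8398 genes compared, the median log2 ratio was -0.004 and the median size was 0.16. PGRMC2 ranked as number 9 from the top and HSD3B1 as number 22 from the bottom. PGRMC1 was at percentile 79.7 of the ratios and at percentile 56.6 of their size. The spread of the ratio over the 4 heifers had a median SD of 0.25 over all genes. HSD3B1 was at percentile 99.1 of this spread, PGRMC2 at percentile 70.2 and PGRMC1 at percentile 22.

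**Figure D4:**
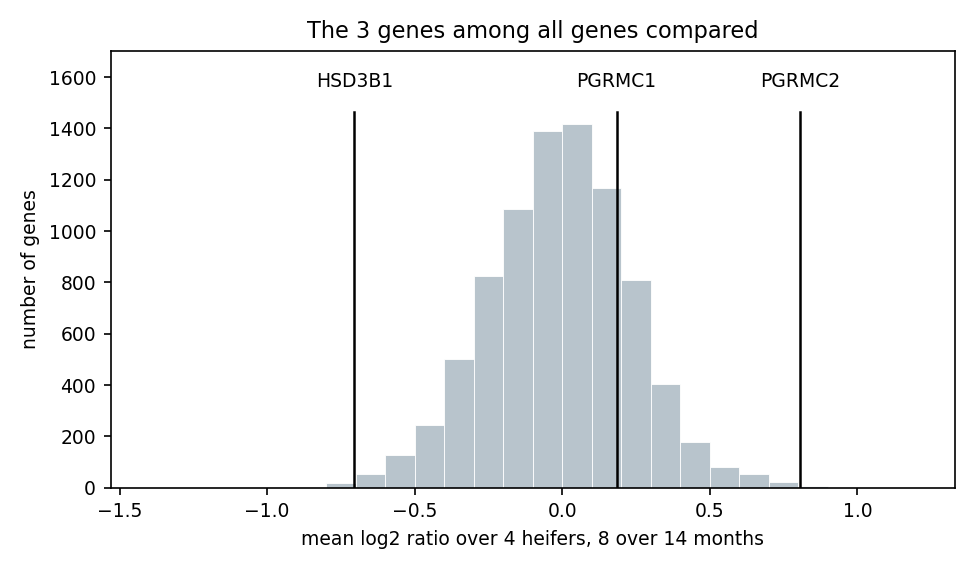
Number of genes (vertical axis) by mean log2 ratio of 8 over 14 months over 4 heifers (horizontal axis, bins of 0.1) for all 8398 genes compared, with lines at the 3 genes. PGRMC2 (0.81) and HSD3B1 (-0.70) lie in opposite tails and PGRMC1 (0.18) within the bulk.

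Disagreement between probes of 1 gene was common on this array. For 1663 genes with at least 2 detected probes, the mean ratios of the 2 brightest differed in sign in 44.7%, and their median difference was 0.21 on the log2 scale. In PGRMC1 the difference between EMBV3_07237 and EMBV3_42040 was 0.44 ± 0.09 (SD, n = 4), at percentile 82.1 of these genes. The pair had opposite signs in all 4 heifers, as in 6.13% of genes with at least 2 detected probes. In PGRMC2 the difference between EMBV3_10447 and EMBV3_38441 was 0.73 ± 0.33 (SD, n = 4), at percentile 97.5. Whether the probes of a gene read different transcripts was not tested.

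The size of the ratios depended on how spot intensities were summarised. Where each spot was read by its mean pixel, HSD3B1 had -0.41 ± 0.56 and PGRMC2 had 0.59 ± 0.22 (SD, n = 4). HSD3B1 in heifers 1, 3 and 4 was then -0.745, -0.783 and -0.522, less alike than with median pixels. The change in PGRMC2 lay in heifers 3 and 4, where its ratios became 0.72 and 0.41, against 0.82 and 0.40 in heifers 1 and 2. With median centring in place of the loess normalization, which follows intensity, the median of all genes moved to -0.18. PGRMC1 then had -0.12, which was 0.06 above that median, while PGRMC2 was 0.77 above it and HSD3B1 0.71 below it (-0.71). In the authors' deposited table of log2 ratios, the brightest probe of PGRMC2 had 0.88, 0.40, 1.17 and 0.83 in heifers 1 to 4. HSD3B1 had -1.05, 0.55, -1.16 and -1.13 in the authors' deposited table.

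The other genes of progesterone action and steroid synthesis were followed through lists of named genes, in a model fitted across all genes (limma). Over all 8398 genes, 378 passed at an adjusted p under 0.05, 4.5% of those compared (1.7% higher and 2.8% lower at 8 months). In the same fit with all 4 heifers, 2295 genes, or 27.3%, had an unadjusted p under 0.05 in limma. In the 4 pathway lists 50 genes other than PGRMC1, PGRMC2 and HSD3B1 were compared, of which 1 was higher, 2 were lower and 47 did not pass. The share that passed, 6%, was near that of all genes, and the median log2 ratio was 0.01, against -0.004 over all genes. Without heifer 1, 2 or 3, without the dye term or with mean pixel intensities, 0 of these genes passed in limma, with 11 to 18 at an unadjusted p under 0.05. The fitted errors leave out the difference between the dye orientations. Over all compared probes the ratios correlated at 0.61 between heifers 1 and 2 and at 0.39 between heifers 3 and 4, against 0.0015 to 0.12 across orientations.

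Of the other progesterone receptors and MAPR proteins, most were below background. The nuclear receptor PGR and the membrane receptors PAQR7, PAQR8 and PAQR9 were above background in 0 of 8 samples, each on 1 probe. PAQR5 was above background in at most 2 of 4 samples at each age and PAQR6 in at most 1 of 4. For these genes a difference between ages was not detectable on this array. NENF, a secreted MAPR protein with neurotrophic activity, was above background in all 8 samples. Its log2 ratio was -0.39, 0.03, 0.08 and -0.17 in heifers 1 to 4 (fit -0.11 ± 0.11 SE, limma adjusted p = 0.543). CYB5D2, a further MAPR gene, was not compared because no probe of the array carried its symbol.

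Among PGRMC partners and haem or sterol proteins, 0 of 16 compared genes passed in limma, and the median log2 ratio was 0.06. An unadjusted p under 0.05 in limma was reached by 6 of the 16, and by 27.3% of all genes. CYP51A1, the sterol demethylase that is a P450 partner of PGRMC1, had 1.11, 1.33, -0.52 and -0.01 in heifers 1 to 4. SREBF2, the transcription factor that drives cholesterol synthesis, had 0.88, 1.08, -0.13 and -0.23. Both were higher at 8 months in heifers 1 and 2 and not in heifers 3 and 4, that is, in 1 dye orientation. Their fitted log2 ratios were 0.48 ± 0.12 and 0.40 ± 0.10 (SE, limma adjusted p = 0.0564 and 0.0583). SERBP1, an mRNA-binding partner of PGRMC1 named here after its values were seen, had -0.35 ± 0.12 (SE) and did not pass. The other detected probe of SERBP1 did not have this sign.

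In steroid hormone synthesis and metabolism 20 genes besides HSD3B1 were compared, of which 1 was lower and 19 did not pass. The share that passed was 5%, near the 4.5% of all genes. An unadjusted p under 0.05 in limma was reached by 8 of the 20, and by 27.3% of all genes. The median log2 ratio was 0.07. HSD17B11, a 17-beta-hydroxysteroid dehydrogenase found on lipid droplets, fell at 8 months, with log2 ratios of -1.10, -0.33, -0.73 and -0.66 in heifers 1 to 4 (fit -0.70 ± 0.13 SE, limma adjusted p = 0.0369). All 4 heifers had the same sign, and heifer 2 again had the ratio closest to 0. Over the 12 alternatives the adjusted p of HSD17B11 ran from 0.000639 to 0.227 and passed in 7, and adjusted over all probes it was 0.0537.

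The genes next to HSD3B1 in the pathway had other signs by heifer. CYP11A1, which makes pregnenolone from cholesterol, had 0.54, -0.35, -0.35 and 0.84 in heifers 1 to 4, positive in heifers 1 and 4 where HSD3B1 was negative. STAR, which brings cholesterol to the inner mitochondrial membrane, had -0.42, -0.20, 0.06 and 0.18, splitting by dye orientation. FDX1, the ferredoxin that passes electrons to CYP11A1, had 0.80, 0.72, 0.23 and -0.17 (fit 0.40 ± 0.11 SE, limma adjusted p = 0.069). CYP19A1, the aromatase that makes oestrogens, had -0.15, -0.14, 0.07 and -0.49, and its signal reached the background limit in 2 pools of 4 at 8 months and in 4 of 4 at 14 months. None of these genes passed. HSD3B7, a relative of HSD3B1 that acts in bile acid synthesis and is named here after its values were seen, had 0.23, -0.04, 0.93 and 0.30 and did not pass.

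Of 13 compared coregulators and chaperones of the progesterone receptor, 1 was higher, 1 lower and 11 did not pass. The share that passed was 15.4%, against 4.5% of all genes, a difference that was not tested. An unadjusted p under 0.05 in limma was reached by 5 of the 13, and by 27.3% of all genes. The median log2 ratio was -0.002. NCOA1, a coactivator of nuclear receptors including PGR, fell at 8 months in all 4 heifers (-1.05, -0.89, -0.75 and -0.40), with a fit of -0.77 ± 0.11 (SE, limma adjusted p = 0.0313). Of the other 2 detected probes of NCOA1, 1 had this sign. The co-chaperone DNAJB1 rose in the fit (0.48 ± 0.10 SE, limma adjusted p = 0.0379). Its log2 ratio was -0.05 and -0.05 in heifers 1 and 2 and 1.03 and 1.00 in heifers 3 and 4, and 0 of its other 2 detected probes had this sign. FKBP4, a co-chaperone of steroid receptors named here after its values were seen, had 0.56, 0.32, 0.53 and 0.26 (limma adjusted p = 0.0583). NCOA1 passed in 7 of 12 alternatives (limma adjusted p from 0.000419 to 0.226) and DNAJB1 in 5 of 12 (from 0.0267 to 0.263). Adjusted over all probes, the limma adjusted p was 0.0449 for NCOA1 and 0.0506, no longer passing, for DNAJB1.

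**Figure D5:**
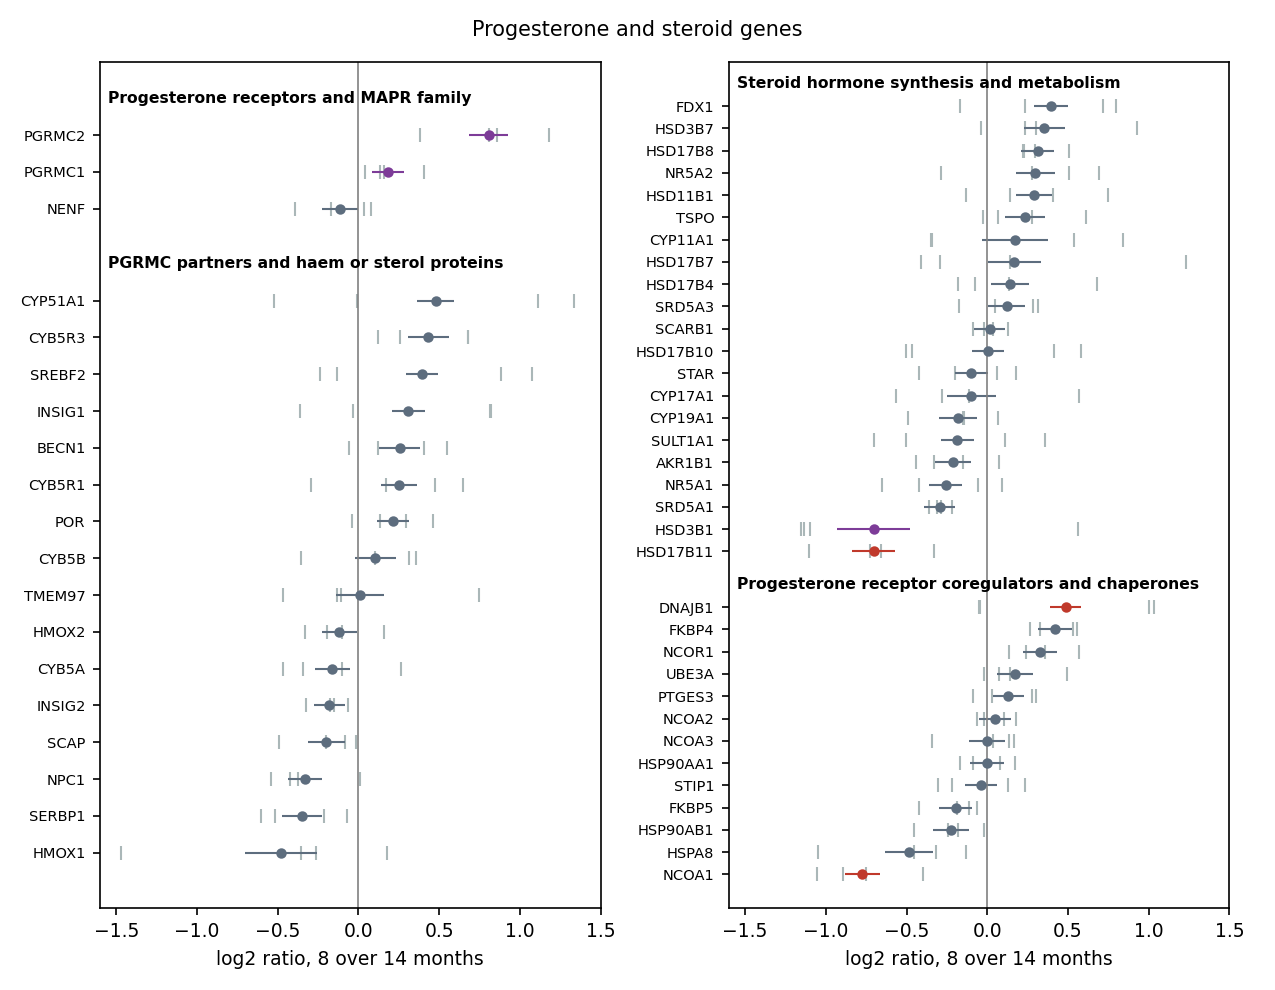
Fitted log2 ratio of 8 over 14 months with its standard error (horizontal axis) for the compared genes of the 4 pathway lists (rows), with ticks at the 4 heifers. PGRMC1, PGRMC2 and HSD3B1 are purple and carry no test, genes that passed in limma are red (HSD17B11, NCOA1 and DNAJB1), and the others, in grey, did not pass; HMOX1, singled out after its values were seen, was above background in 0 of 4 pools at 8 months, so its size is uncertain.

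HSD3B1, CYP11A1 and STAR are also made by granulosa and cumulus cells, which surround the oocyte, so markers of those cells were read in the same samples. Of 19 such markers, 10 were above background in 0 of 8 samples. These included the gonadotrophin receptors FSHR and LHCGR, the inhibin subunit INHA, the transcription factor FOXL2, and AMH with its receptor AMHR2. Others were detected: CYP11A1, STAR, INHBA, SERPINE2 and PTGS2 (named here after its values were seen) were above background in all 8 samples. Of the 6 that were compared, 0 passed in limma, and their median log2 ratio was -0.14. An unadjusted p under 0.05 in limma was reached by 1 of the 6, and by 27.3% of all genes. INHBA had -0.25 ± 0.13 and SERPINE2 0.25 ± 0.11 (SE), with -0.38 to -0.11 and 0.18 to 0.32 when 1 heifer was left out. Their summed normalized intensity was 9070 to 19000 at 8 months and 9150 to 14600 at 14 months. The log2 ratio of the sum was 0.38, 0.25, 0.04 and -0.20 in heifers 1 to 4. SERPINE2 weighed most in this sum of linear values, with mean log2 levels of 12.99 at 8 months and 12.74 at 14 months. Its own log2 ratio was 0.73, 0.46, 0.04 and -0.24. Of the 6 fitted ratios, 2 were above 0.

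Of 12 oocyte markers, 3 were compared and 0 passed in limma, with 0 at an unadjusted p under 0.05. MOS had 0.20 ± 0.11 and OOEP 0.20 ± 0.10 (SE). ZP3, named here after its values were seen, went the other way with -0.15 ± 0.10 (SE). The oocyte genes GDF9, BMP15, ZP4, ZAR1 and NLRP5 were above background in 0 of 8 samples. Of 3 compared blood cell markers 0 passed in limma, with 1 at an unadjusted p under 0.05, PTPRC having 0.31 ± 0.12 and CD3E 0.06 ± 0.10 (SE). Over all genes 27.3% had an unadjusted p under 0.05 in limma. Of 14 compared blastocyst markers GATA2 (0.61 ± 0.10) and TEAD4 (0.56 ± 0.10) rose, DAB2 fell (-0.82 ± 0.10) and 11 did not pass, where 4.5% of all genes passed. These calls held in 6, 6 and 7 of 12 alternatives. The part of these markers in the ratios of PGRMC2 and HSD3B1 was not tested.

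The genes most like each member were found by the root mean square difference of their 4 log2 ratios, heifer by heifer, among 8397 other genes. For PGRMC1 these were DIP2A, DPY19L2 and SLC37A4, at 0.03 to 0.04. For PGRMC2 they were TMEM161A (0.95, 0.11, 1.15 and 0.99 in heifers 1 to 4), PRXL2B (0.51, 0.36, 1.24 and 0.64) and UBL7 (0.57, 0.09, 1.14 and 0.77), at differences of 0.17 to 0.21. In all 3 heifer 2 was the lowest and heifer 3 the highest, as in PGRMC2. Since they were picked for likeness to its 4 ratios, this shared order follows largely from the choice. For HSD3B1 the nearest genes were farther, at 0.39 to 0.45. They were the histone gene HIST1H2BN (-1.36, 0.94, -0.60 and -0.78), the actin-binding calponin CNN3 (-0.43, 0.21, -1.06 and -0.86) and the tight junction claudin CLDN23 (-1, 0.86, -0.32 and -1.12). Each had its only positive ratio in heifer 2, which likewise follows largely from how they were picked.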

How the data were processed

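The scanner tables hold foreground and background intensity per spot on a linear scale, not normalized, per the file headers. The authors also deposited log2 ratios per probe, made by steps not given in the sources used here, which served as an alternative. They follow the scanner ratios (r = 0.966 to 0.998, slopes 0.982 to 1 over bright probes), with column medians of 0.0036, 0.00028, -0.0014 and 0.0094 after all were read as 8 over 14 months. Median intensities were background-corrected by normexp (offset 50) and normalized within arrays by loess, with no weight on 1426 control or unnamed spots (limma 3.58.1, R 4.3.3). Normalized levels are channel values after Aquantile scaling. Probes above background in at least 3 of 4 samples of an age were compared. Platform symbols (21790 probes with 1, 0 with several) were updated through RefSeq synonyms (1524 replaced, 241 kept as given); the brightest detected probe stood for a gene. The age coefficient and a dye term were fitted with lmFit and eBayes, which leaves 2 residual degrees of freedom, with Benjamini-Hochberg adjustment over all genes. The number of arrays limits precision. The fit was tested on simulated ratios with independent noise and a constant dye effect per gene. That test cannot show whether the difference between dye orientations in these data is such an effect. The members and lists were chosen with earlier results of these data known. Named beside the members are genes that passed, the 2 smallest p per list, the receptor list, a few fixed pathway genes, and the 3 most alike genes per member; any other is marked where it is named. The arrays share 1 slide. Both ages of a heifer share an array, so the pairing is within each ratio. No probe positions were used.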

Additional observations from a re-analysis of the deposited data

Results flagged for a closer look

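The log2 ratio of HSD3B1 in heifer 2 was 0.56, while the others lay between -1.15 and -1.09. The gap between heifer 2 and the nearest of the others was 0.967 of the whole range of the 4 heifers. It was the only value to stand so far apart among 35 sets of 4 ratios looked at (7 probes of the 3 genes and 28 other named genes). The gap took a smaller part of the range under some alternatives. With mean pixel intensities the ratios of HSD3B1 were -0.745, 0.42, -0.783 and -0.522 in heifers 1 to 4. With median centring they were -1.222, 0.425, -1.592 and -1.182. Heifer 2 remained the only positive value in both. The gap is a description and no test, since these ratios served to choose the gene.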

How the results depend on the processing

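PGRMC2 stayed positive and HSD3B1 negative under every alternative tried. Leaving out 1 heifer gave fitted ratios of 0.12 to 0.25 for PGRMC1, 0.69 to 0.93 for PGRMC2 and -1.13 to -0.28 for HSD3B1. Fits without 1 heifer give each dye orientation equal weight and are not plain means over the remaining heifers. PGRMC1 changed sign under median centring (-0.12) and as the mean over its detected probes (-0.034), where PGRMC2 had 0.44. Over all genes 378 passed, against 2078 under median centring (39 higher, 2039 lower), 0 without the dye term or with mean pixel intensities (1544 and 2257 at an unadjusted p under 0.05 in limma) and 0 to 339 without 1 heifer (0 without heifer 1 or 2, 2 without heifer 3). Over all probes 332 passed, against 0 with subtracted or no background correction, mean pixel intensities or no dye term (4576, 4506, 4582 and 3153 at an unadjusted p under 0.05 in limma). They numbered 3416 under median centring, 585 with offset 16, 1013 with no filter on dim probes and 0 to 1180 without 1 heifer. Of the pathway genes 3 passed, against 13 under median centring (all lower), 5 with the authors' table, 0 with mean pixel intensities or no dye term and 0 to 3 without 1 heifer. Under median centring SREBF2 (-0.024), CYP11A1 (-0.084), SERPINE2 (-0.12) and SLC37A4 (-0.031) changed sign. These 4 lay above the median of all genes under that setting (-0.18) by 0.16, 0.099, 0.063 and 0.15 in the same order. Leaving out 1 heifer gave -0.13 to 0.47 for CYP11A1 (-0.05 without heifer 1), -1.02 to 0.13 for HIST1H2BN and -0.86 to 0.067 for CLDN23. The cause was not tested. Dim probes near the background threshold limit what the second probes of PGRMC1 and PGRMC2 can show.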
